A study of Homo sapiens with 8 samples.

Results

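The matrix metalloproteinases (MMPs) and their tissue inhibitors (TIMPs) were followed in A375, an established line of human malignant melanoma cells. The 9 genes were chosen by name out of 56638 entries in each deposited table: 6 proteases, MMP9, MMP1, MMP2, MMP14, MMP15 and MMP19, and 3 inhibitors, TIMP1, TIMP2 and TIMP3. All 9 had a row in each of the 3 tables. The cells were kept in medium with 10% serum and transfected 24 h after seeding, by lipid transfection, and RNA was taken 48 h later. The plasmid pcDNA3.1(-) was empty in the vector group and in the others encoded SLNCR1, a long noncoding RNA: the full-length form (SLNCR1 group), its conserved stretch only (conserved group) or the form lacking that stretch (delta conserved group). Each of the 4 groups had 2 libraries. Every culture, controls included, was thus transfected, and expression was transient in 1 cell line. Separate cultures are not named in the labels, so p-values measure only the spread between these libraries, which may be technical.

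MMPs are zinc-dependent proteases that are made as inactive precursors and cut collagens, laminins, fibronectin and other proteins of the matrix around cells. TIMPs bind the active site of MMPs and block it, and TIMP2 also forms a bridge between MMP14 at the cell surface and the precursor of MMP2 through which MMP2 is activated. In melanoma the family is best known for its part in invasion through basement membrane and dermis, and SLNCR1 has been linked to MMP9 and invasion, so the comparisons ask which of these genes differ with each form of the RNA.

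Start-site sequences were looked up for all 9 members, and those found were of MMP14, MMP15, TIMP1 and TIMP3. In the values that follow, MMP14, TIMP1 and TIMP3 passed limma's test as higher than vector with SLNCR1 and with delta conserved. These differences cannot be told apart from library depth. MMP15 passed in none of the 6 comparisons of limma's main fit. RefSeq's promoter table (GRCh38.p14) held 4 of the 9 members, and the 250 bases before each start, all on the plus strand, are shown 5′ to 3′ with GC boxes in capitals. The windows lie at chr14:22836335-22836584 for MMP14, chr16:58025504-58025753 for MMP15, chrX:47582186-47582435 for TIMP1 and chr22:32801455-32801704 for TIMP3.
MMP14: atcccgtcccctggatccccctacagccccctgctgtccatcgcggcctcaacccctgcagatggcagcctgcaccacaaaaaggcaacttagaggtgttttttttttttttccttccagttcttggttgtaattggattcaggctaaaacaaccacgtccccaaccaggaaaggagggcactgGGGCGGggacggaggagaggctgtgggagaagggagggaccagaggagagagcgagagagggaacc
MMP15: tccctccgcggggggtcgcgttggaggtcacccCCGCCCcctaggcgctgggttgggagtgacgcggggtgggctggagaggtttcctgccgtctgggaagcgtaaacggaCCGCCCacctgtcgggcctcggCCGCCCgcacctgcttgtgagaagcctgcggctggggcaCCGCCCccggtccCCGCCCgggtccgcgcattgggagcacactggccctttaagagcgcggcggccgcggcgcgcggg
TIMP1: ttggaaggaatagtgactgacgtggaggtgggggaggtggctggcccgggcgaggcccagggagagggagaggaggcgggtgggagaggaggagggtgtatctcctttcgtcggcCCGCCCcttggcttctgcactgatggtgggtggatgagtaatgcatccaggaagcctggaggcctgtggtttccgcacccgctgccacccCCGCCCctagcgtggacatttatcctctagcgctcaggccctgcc
TIMP3: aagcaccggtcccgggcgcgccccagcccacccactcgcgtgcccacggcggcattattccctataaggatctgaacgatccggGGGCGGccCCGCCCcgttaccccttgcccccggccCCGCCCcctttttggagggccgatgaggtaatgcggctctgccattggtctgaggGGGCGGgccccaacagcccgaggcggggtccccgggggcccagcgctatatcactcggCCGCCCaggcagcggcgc
The GC box, GGGCGG on either strand, is the letter pattern bound by SP1-type factors. It occurred 1 time for MMP14, 5 times for MMP15, 2 times for TIMP1 and 5 times for TIMP3, and 42.6% of 35116 RefSeq windows of the same length hold it. No match in any of the 4 windows was found for the AP-1 site TGANTCA (in 6.57% of all windows), the cAMP response element TGACGTCA (1.65%), the EGR site GCGTGGGCG (0.720%, and it overlaps the GC box by letters), the NF-kB site searched under that name (1.73%), the E-box CACGTG (6.34%), the D-box TTANGTAA (1.98%), the androgen receptor half-site AGAACA (12.4%) or the TATA box TATAAA (10.7%). Both strands were searched for these letters only, so variant sites that differ by a base were not counted. The GC content of the windows was 56.8% for MMP14, 74.8% for MMP15, 64.8% for TIMP1 and 72.4% for TIMP3, against a mean of 57.2% over all windows. MMP15 and TIMP3 thus shared a GC box count. A relation of these matches to the levels given below was not tested.

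The group means in the deposited tables were resolved into whole reads of single libraries, and the library of a pair with more reads is named a, its partner b. Library totals were 12015394 and 11321294 reads in vector, 11340089 and 10280456 in the conserved group, 10097194 and 9090649 with SLNCR1, and 9187241 and 8222868 in the delta conserved group. Every SLNCR1 and delta conserved library was therefore shallower than every vector and conserved library. LINC00511 was the only measured entry of 2 listed as a check of the transfected RNA. Whether it covers the transfected forms was not tested. It stood at 628 and 621 normalized counts in vector, and at 865 and 886 with SLNCR1, 1052 and 1141 in the conserved group and 1155 and 870 in the delta conserved group. In the authors' deposited tables its rise passed with SLNCR1 (adjusted p = 0.00559) and the conserved region (5.89e-15), not with delta conserved (0.145). By limma the rise with delta conserved passed (adjusted p = 0.000300). All 10 melanoma markers had reads in some library, and 9 had a mean of at least 10. Their summed level was 14254 to 15730 normalized counts in vector, 16634 to 16727 with SLNCR1, 15276 to 15979 in the conserved group and 16807 to 17278 in the delta conserved group. Most of the sum came from CSPG4, AXL and SOX10 (5497, 3977 and 2939 in vector library a). TYR, MLANA and PMEL were low, with means of 0.89, 12.3 and 32.1 in vector, and TYR was at 0 with SLNCR1. Summed levels for markers of other cells were lower, at 649 to 779 for 5 keratinocyte genes (DSG3 at 0), 496 to 589 for 5 fibroblast genes, 58.6 to 82.8 for 5 leukocyte genes and 22.1 to 37.4 for 4 endothelial genes (PECAM1 at 0).

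Levels between the genes can be compared only per length. In vector, in RPKM (reads scaled by merged exon length and library total, computed here), TIMP3 stood highest at 86.9 ± 2.0 (SD, n = 2), followed by MMP2 at 57.6 ± 2.55, TIMP1 at 54.2 ± 1.97, MMP14 at 41.4 ± 1.63 and TIMP2 at 30.9 ± 0.90. MMP19 at 10.2 ± 1.28 and MMP1 at 8.88 ± 0.580 were within their spread of each other. MMP2 and TIMP1 were separated by less than the sum of their SDs. MMP15 reached 4.02 ± 0.393 and MMP9 0.386 ± 0.0422, the lowest of the 9. Exon lengths came from GENCODE v29, which is not the annotation behind the tables, so this order is approximate.

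The order below the top 5 changed with the construct. MMP19 fell to 3.41 ± 0.0791 with SLNCR1 and 3.16 ± 0.239 in the delta conserved group, below MMP1 and near MMP15, which stood at 4.28 ± 0.568 and 3.84 ± 0.637. With the conserved region MMP19 kept its place above MMP1, at 11.7 ± 0.129. MMP9 was the lowest of the 9 in all 4 groups.

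MMP19 was the member that differed most. It encodes a secreted protease that cuts components of basement membrane. Its normalized counts (reads divided by size factors over all 8 libraries) were 504 and 436 in vector, 159 and 162 with SLNCR1, 555 and 556 in the conserved group, and 159 and 145 in the delta conserved group. The 4 libraries with SLNCR1 or delta conserved were all below the other 4, and no values lay between 162 and 436. In whole reads the counts were 623 and 491 in vector, 158 and 147 with SLNCR1, 623 and 556 in the conserved group, and 143 and 115 in the delta conserved group.

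In the authors' deposited table for SLNCR1, MMP19 had a log2 fold change of -1.55 (adjusted p = 3.12e-17). It was the only 1 of the 9 members to pass the authors' adjusted p of 0.05, and 8 did not pass. Of all 33548 genes tested there 0.844% passed as lower and 0.0388% as higher. An unadjusted p under 0.05 was seen for 6 of the 9 members, MMP19 included, and for 6.25% of all genes, those with few reads included. MMP19 had a value of -1.63 in the authors' deposited table of delta conserved (log2, adjusted p = 1.63e-17), where 1.14% of 34744 genes passed as lower. Both tables use the same vector libraries. The authors' deposited table for the conserved region gave 0.22 (adjusted p = 1), and none of the 9 members passed there (1, MMP19, had an unadjusted p under 0.05), against 0.0175% of 34347 genes that passed as higher and 0% as lower.

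Over the recovered libraries, limma gave a log2 difference from vector of -1.54 ± 0.10 (SE, adjusted p = 2.41e-08) for MMP19 with SLNCR1, a fold of 0.344 with a 95% interval of 0.297 to 0.399. For delta conserved the difference was -1.62 ± 0.10 (limma, adjusted p = 1.32e-08), a fold of 0.325 (0.281 to 0.377). SLNCR1 and delta conserved libraries overlapped, with a log2 difference of 0.08 between them (95% interval -0.13 to 0.29, limma adjusted p = 0.882). Between constructs, MMP19 was lower with SLNCR1 than with the conserved region by a log2 difference of -1.78 ± 0.10 (limma, adjusted p = 2.36e-09), and higher with the conserved region than with delta conserved by 1.86 ± 0.10 (limma, adjusted p = 1.47e-09). With the conserved region alone both libraries were above both vector libraries, by a log2 difference of 0.24 ± 0.10 that did not pass (limma, adjusted p = 0.829).

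In RNA from whole cultures, fewer cells that express a gene and less RNA per cell cannot be told apart. MMP19 overlaps TMEM198B, and the library kit does not keep strand. TMEM198B, on the deposited tables' own row, had 349 and 299 reads in vector, 307 and 271 with SLNCR1, 285 and 246 in the conserved group and 255 and 187 in the delta conserved group. Its reads did not show the step seen for MMP19. How reads in the stretch shared by these genes were counted is not given, and an effect of the overlap was not tested.

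**Figure D1:**
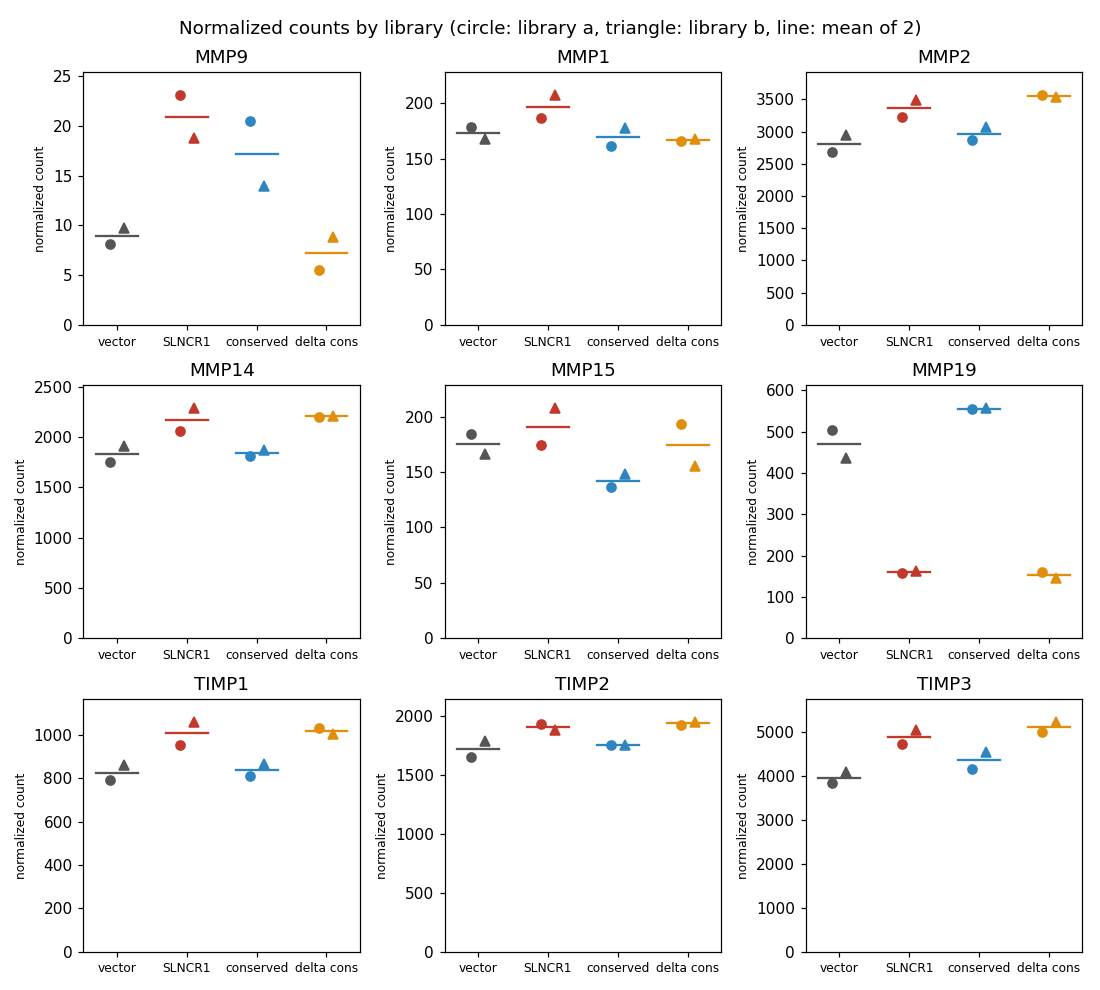
Normalized counts of the 9 genes (vertical axes, each from 0) in the 8 libraries, grouped by construct; circles are library a, triangles library b and lines the mean of 2. MMP19 lies at 145 to 162 with SLNCR1 and delta conserved and at 436 to 556 in the other groups, while MMP9 lies above both vector libraries with SLNCR1 and the conserved region.

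MMP9 and MMP2 are the gelatinases, which cut denatured collagen and collagen of basement membrane. MMP9 was near the limit of detection. It had 10 and 11 reads in vector, 23 and 17 with SLNCR1, 23 and 14 in the conserved group and 5 and 7 in the delta conserved group. As a measure of counting error alone, the exact 95% Poisson interval of 10 reads is 4.80 to 18.4 and that of 23 reads is 14.6 to 34.5. In normalized counts it stood at 8.10 and 9.77 in vector, 23.1 and 18.8 with SLNCR1, 20.5 and 14.0 in the conserved group, and 5.56 and 8.84 in the delta conserved group. Both SLNCR1 and both conserved libraries were above both vector and both delta conserved libraries, and delta conserved overlapped vector.

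None of these differences in MMP9 passed after adjustment. In the authors' deposited tables its log2 fold change was 1.23 with SLNCR1 (p = 0.0308, adjusted p = 0.656), 0.93 in the conserved group (adjusted p = 1) and -0.31 in the delta conserved group (adjusted p = 1). By limma the difference from vector was 1.14 ± 0.39 with SLNCR1 (SE, adjusted p = 0.0622), a fold of 2.21 with a 95% interval of 1.26 to 3.87, and 0.86 ± 0.39 in the conserved group (limma, adjusted p = 0.829). SLNCR1 and delta conserved differed by 1.44 ± 0.39 (limma, adjusted p = 0.484), a fold of 2.72 (1.55 to 4.77), in a comparison where 0% of 16067 genes passed by limma and 1284 had an unadjusted p under 0.05. The conserved region and delta conserved differed by 1.16 ± 0.39 (limma, adjusted p = 0.0837). MMP9 entered these fits through a mean over all 8 libraries of at least 10, while its group means were 8.93 ± 1.18 (SD, n = 2) in vector and 7.20 ± 2.32 in the delta conserved group.

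MMP2 was abundant. Its normalized counts were 2679 and 2948 in vector, 3227 and 3498 with SLNCR1, 2866 and 3076 in the conserved group and 3572 and 3531 in the delta conserved group. Libraries with SLNCR1 and with delta conserved were all above vector, and those with the conserved region overlapped it. MMP2 rose by a log2 of 0.33 with delta conserved (the authors' deposited table, adjusted p = 0.000515). It was 1 of 3 members that passed as higher there, with TIMP3 and MMP14, where 1.11% of genes passed as higher. In the authors' deposited table for SLNCR1 it was 0.26 (adjusted p = 0.347).

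Among the other proteases, MMP14 is the membrane-anchored activator of MMP2. It stood at 1750 and 1913 normalized counts in vector, 2061 and 2285 with SLNCR1, 1810 and 1870 in the conserved group and 2200 and 2209 in the delta conserved group. In the authors' deposited tables its log2 fold change for delta conserved was 0.26 (adjusted p = 0.0278). Its libraries had the same order of groups as those of MMP2. MMP15, a second membrane-type protease, stood at 185 and 166 in vector, 174 and 208 with SLNCR1, 136 and 148 in the conserved group and 194 and 155 in the delta conserved group. Both of its conserved libraries were below both vector libraries, by a log2 difference of -0.30 that did not pass (limma, adjusted p = 0.829). With SLNCR1 MMP15 was above the conserved group by 0.42 ± 0.14 (SE), which did not pass either (limma, adjusted p = 0.0569). Over 13 alternatives this difference was 0.29 to 0.55. MMP1, the interstitial collagenase, stood at 178 and 168 in vector, 186 and 208 with SLNCR1, 161 and 178 in the conserved group and 166 and 168 in the delta conserved group. MMP1 passed in none of the 6 limma comparisons and in none of the authors' deposited tables.

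The 3 inhibitors were all above vector in both SLNCR1 and both delta conserved libraries. TIMP3, which stays bound to matrix and also inhibits some ADAM proteases, stood at 3830 and 4090 normalized counts in vector, 4713 and 5052 with SLNCR1, 4158 and 4543 in the conserved group and 4997 and 5226 in the delta conserved group. It rose in the authors' deposited table for delta conserved, by a log2 of 0.36 (adjusted p = 2.80e-05), and for SLNCR1 the value was 0.31 (adjusted p = 0.117). TIMP1, which also binds the precursor of MMP9, stood at 792 and 862 in vector, 955 and 1061 with SLNCR1, 809 and 868 in the conserved group and 1031 and 1003 in the delta conserved group. Its log2 fold change in the authors' deposited table for delta conserved was 0.30 (adjusted p = 0.0503). TIMP2 stood at 1657 and 1785 in vector, 1934 and 1881 with SLNCR1, 1756 and 1756 in the conserved group and 1928 and 1951 in the delta conserved group, and passed in no table.

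Reads were looked up for 6 overlapping genes, TMEM198B among them. SLC12A5-AS1, listed for MMP9, and CEP295NL, listed for TIMP2, had no row under these names, so no reads can be given for them. WTAPP1, which overlaps MMP1, had 1 to 3 reads per library. SYN1, around TIMP1, had 1 to 16 reads per library against 794 to 978 for TIMP1, and SYN3, around TIMP3, had 9 to 41 against 4138 to 4730.

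By limma 4 members were higher than vector with SLNCR1 (MMP2, MMP14, TIMP1 and TIMP3) and 1 was lower (MMP19), where 3.95% of 16067 genes passed as higher and 7.4% as lower. The log2 differences of the 4 were 0.25 to 0.30, with adjusted p-values of 0.0151 to 0.0342. The same 4 were higher and MMP19 lower with delta conserved, by log2 differences of 0.27 to 0.37 for the 4 (limma, adjusted p = 0.00442 to 0.0222), where 5.18% of genes passed as higher and 5.24% as lower. The conserved region gave 0 members (limma, with 3 of 9 at an unadjusted p under 0.05), against 0.00622% of genes as higher and 0% as lower. The median log2 difference over the 9 was 0.25 with SLNCR1, 0.03 in the conserved group and 0.17 in the delta conserved group, beside 0.00, 0.02 and 0.00 over all genes tested. Without vector library a, MMP19 alone passed in either comparison. It also alone passed for SLNCR1 without SLNCR1 library b and for delta conserved without delta conserved library b, and without delta conserved library a TIMP3 passed beside it.

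Between constructs, 2 members were higher with SLNCR1 than with the conserved region, MMP14 by 0.24 ± 0.07 (limma, adjusted p = 0.0366) and TIMP1 by 0.26 ± 0.08 (limma, adjusted p = 0.0305), where 2.05% of genes passed as higher and 9.44% as lower. With the conserved region against delta conserved 3 were lower, MMP2 by -0.26, MMP14 by -0.26 and TIMP1 by -0.28 (limma, adjusted p = 0.0362, 0.0321 and 0.0320), and MMP19 alone was higher, where 1.12% of genes passed as lower and 5.78% as higher. Without 1 library the calls of these smaller differences were lost while their direction stayed: for SLNCR1 against the conserved group without SLNCR1 library b or either conserved library, and for the conserved group against delta conserved without any of the 4. SLNCR1 against delta conserved gave 0 members by limma, with 1 of 9, MMP9, at an unadjusted p under 0.05. For MMP2, MMP14, TIMP1, TIMP2 and TIMP3 the 95% intervals of the log2 difference between SLNCR1 and delta conserved ran from -0.23 to 0.15.

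**Figure D2:**
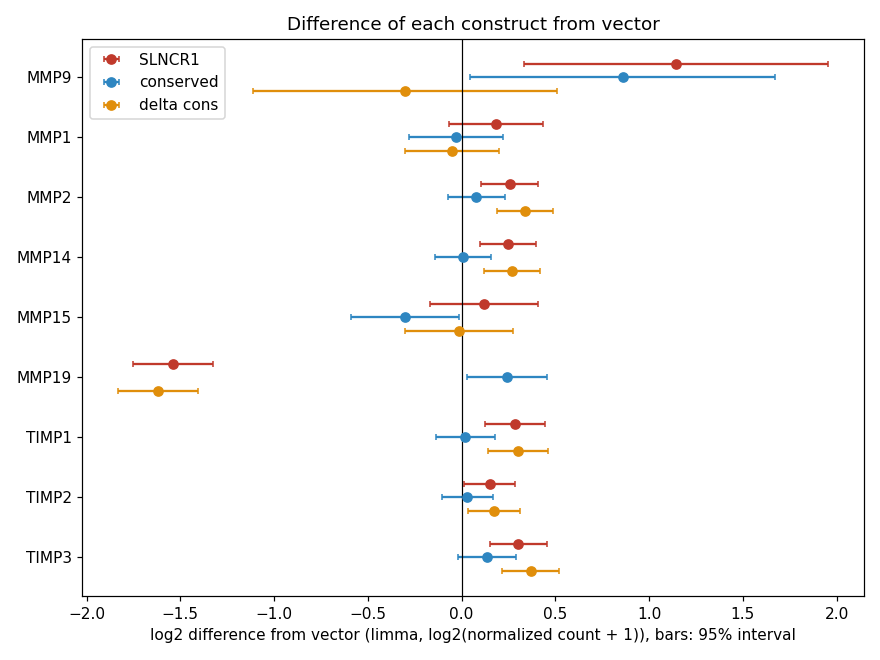
Log2 differences of each construct from vector by limma on log2(normalized count + 1), with 95% intervals as bars. MMP19 lies at -1.54 and -1.62 with SLNCR1 and delta conserved, the intervals of MMP9 are the widest of the 9 genes, and MMP2, MMP14, TIMP1 and TIMP3 lie at 0.25 to 0.37 with these constructs.

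The smaller differences moved with library depth. Read from the deepest library to the shallowest, normalized counts of TIMP3 were 3830, 4158, 4090, 4543, 4713, 4997, 5052 and 5226, an order broken only by a pair of libraries of nearly equal depth (vector b and conserved a). MMP14 and TIMP3 were higher in the shallower library in 4 of 4 groups, and MMP2, TIMP1, TIMP2 and MMP1 in 3 of 4. Over all genes tested the shallower library was the higher for 51.6% to 54.2% of genes in a group. In whole reads MMP2 had 3309 and 3319 in vector and 3210 and 2796 in the delta conserved group.

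A fit with the log2 library total as a covariate, chosen after seeing the data, adjusts the group differences by a slope on depth within groups. Neither SLNCR1 nor delta conserved libraries share a range of depth with vector or conserved libraries. For every difference given here from this fit, the slope is thus extrapolated. In it the difference of MMP2 from vector was 0.10 with SLNCR1 and 0.11 in the delta conserved group, that of MMP14 0.09 and 0.04, that of TIMP1 0.13 and 0.07, and that of TIMP3 0.11 and 0.08 (limma, adjusted p = 0.964 to 0.997). None of these 4 passed. MMP19 stayed at -1.41 with SLNCR1 (limma, adjusted p = 0.00490, and 5.37e-12 to 0.00490 over 13 alternatives) and at -1.43 in the delta conserved group (limma, adjusted p = 0.0704, no longer passing). Against the conserved region it was -1.71 with SLNCR1 (limma, adjusted p = 7.04e-05), and the conserved region stood 1.72 above delta conserved (limma, adjusted p = 0.00179). MMP9 with SLNCR1 stayed at 1.15 (limma, adjusted p = 0.997, and 0.0540 to 0.997 over 13 alternatives). Over the 8 libraries the Spearman correlation with the library total was 0.74 for MMP19 and -0.98 for TIMP3. Depth and group coincide in these libraries for every gene. The 2 thus cannot be told apart by this design, for MMP19 as for MMP2, MMP14, TIMP1 and TIMP3.

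**Figure D3:**
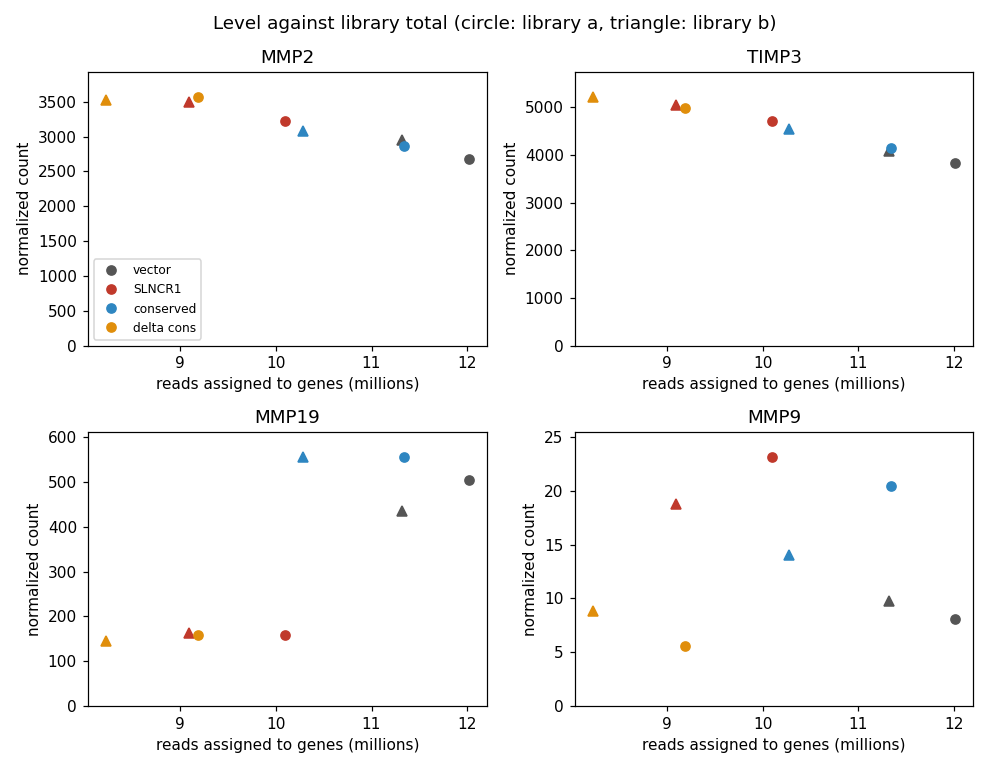
Normalized counts of MMP2, TIMP3, MMP19 and MMP9 (vertical axes, from 0) against the library total of reads assigned to genes (horizontal), with color for the group, circles for library a and triangles for library b. TIMP3 lies higher in the shallower library of every group and MMP2 in 3 of 4, delta conserved being the exception, while MMP19 steps from 159 to 556 between SLNCR1 library a and conserved library b, which have nearly equal totals (10097194 and 10280456 reads).

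Ratios of reads within a library need no scaling between libraries. The ratio of MMP19 to TIMP1 reads was 0.637 and 0.506 in vector, 0.166 and 0.153 with SLNCR1, 0.686 and 0.641 in the conserved group and 0.154 and 0.145 in the delta conserved group. The libraries with SLNCR1 and delta conserved were again apart from the other 4. The ratio of MMP2 to TIMP2, protease to the inhibitor that takes part in its activation, was 1.62 and 1.65 in vector, 1.67 and 1.86 with SLNCR1, 1.63 and 1.75 in the conserved group and 1.85 and 1.81 in the delta conserved group. The ratio of MMP9 to TIMP1 was 0.0102 and 0.0113 in vector, 0.0242 and 0.0177 with SLNCR1, 0.0253 and 0.0161 in the conserved group and 0.00539 and 0.00882 in the delta conserved group. By group mean, the MMP2 and MMP9 ratios had the same order as the normalized counts of the protease.

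**Figure D4:**
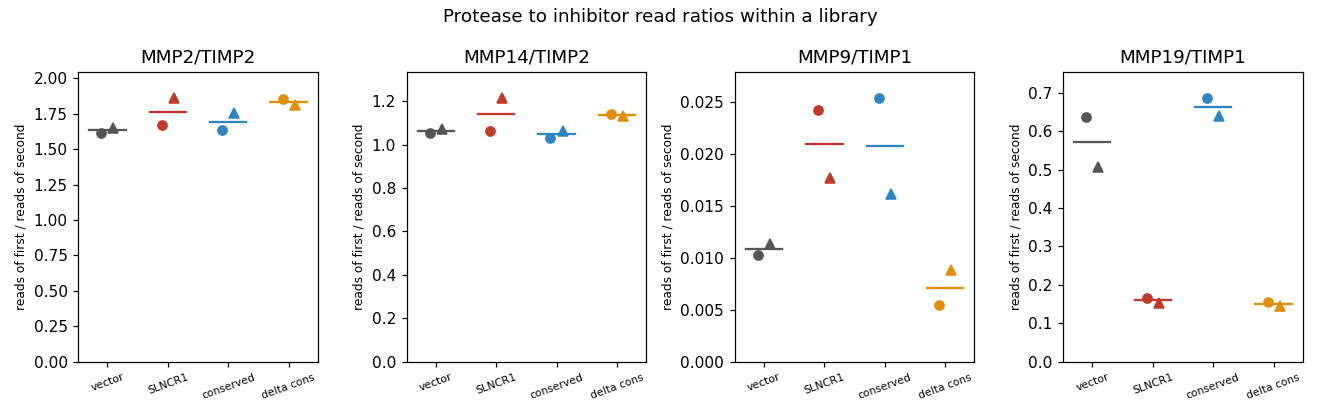
Ratios of reads of a protease to reads of an inhibitor within each library, with circles for library a, triangles for library b and lines for the mean of 2. MMP19/TIMP1 is 0.145 to 0.166 with SLNCR1 and delta conserved and 0.506 to 0.686 in the other libraries, while MMP14/TIMP2 lies between 1.03 and 1.21 throughout.

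Groups of single libraries also gave a count. With SLNCR1, 7 of the 9 members had both libraries above both vector libraries and 1 had both below, where 27.2% and 25.4% of 16067 genes did. With delta conserved the counts were 5 and 1 (27.7% and 26% of genes), and with the conserved region 3 (MMP9, MMP19 and TIMP3) and 1 (MMP15), against 25% and 16.6% of genes. Between constructs, SLNCR1 was wholly above the conserved group for 7 members and below for 1 (29.3% and 27.9% of genes), above delta conserved for 2, MMP9 and MMP1, and below for 1, MMP2 (16.3% and 16.9%). The conserved group was wholly above delta conserved for 2, MMP9 and MMP19, and below for 6 (28.5% and 28.9%).

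The wider family and the proteins that act with it were read from 8 lists, whose counts stand beside 1.11% of all genes passing as higher and 1.14% as lower in the authors' deposited table for delta conserved. These shares are over 34744 genes, including those with few reads. Over the 16067 genes in limma's fit they were 5.18% and 5.24%. Of the other MMPs, 16 of 18 had reads, and 0 passed in the authors' deposited tables, with 1 at an unadjusted p under 0.05 for SLNCR1, 0 for the conserved group and 1 for delta conserved. By limma 0 of 9 passed in each comparison with vector. Of 15 MMP inhibitors and activators, CD44, a receptor that holds MMPs at the cell surface, was higher for delta conserved (log2 0.32 in the authors' deposited table, adjusted p = 0.000568), and 0 fell. Of 11 measured ADAM proteases 1 rose, ADAM19 (0.26, adjusted p = 0.0241, same table), and of 19 ADAMTS proteases 0 passed in the authors' deposited tables (2, 0 and 0 at an unadjusted p under 0.05 for SLNCR1, conserved and delta conserved) and 1 was lower with SLNCR1 by limma.

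Of 13 measured genes of the plasminogen system, whose protease plasmin activates MMP precursors, 3 rose in the authors' deposited table for delta conserved. They were SERPINE2, an inhibitor of plasminogen activators (0.38, adjusted p = 1.04e-05), and the plasminogen-binding pair S100A10 (0.38, adjusted p = 0.00421) and ANXA2 (0.28, adjusted p = 0.0239). Of 15 measured cathepsins and cystatins 4 rose in the same deposited table, the lysosomal proteases CTSB, CTSC, CTSZ and CTSD, by log2 0.30 to 0.32. Their adjusted p-values were 0.00179 to 0.0236. The changes of these 7 genes lay at log2 0.28 to 0.38, beside 0.26 to 0.36 for MMP2, MMP14 and TIMP3.

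Of 18 matrix substrates 7 rose in the authors' deposited table for delta conserved and 0 fell, beside 1.11% and 1.14% of all genes. By limma 7 of 18 were higher with delta conserved, beside 5.18% of the 16067 genes in that fit. SPARC, a matrix protein that binds collagen (0.41, adjusted p = 4.12e-05), TNC (0.34, adjusted p = 6.75e-05) and the laminin chain LAMB1 (0.31, adjusted p = 0.00243) had small differences. COL3A1, the chain of type III collagen, had the largest, 3.66 in the authors' deposited table (adjusted p = 2.61e-09). Its normalized counts were 4.05 and 3.55 in vector, 4.03 and 4.42 with SLNCR1, 53.4 and 2.0 in the conserved group and 51.2 and 45.5 in the delta conserved group. The high COL3A1 value in conserved library a and the low one in b came from the same group.

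Among 20 transcription factors that act on MMP promoters, 2 fell for both SLNCR1 and delta conserved, EGR1 (-1.20 and -1.19 in the authors' deposited tables) and FOSB (-0.71 and -0.89), and 0 rose. Of the 126 genes of the 8 lists measured for the conserved region, 0 passed in the authors' deposited table and 4 had an unadjusted p under 0.05. The adjusted p-values in the authors' deposited tables were 4.27e-25 and 2.09e-23 for EGR1 and 0.00233 and 2.34e-06 for FOSB. The rises given for list genes are those of the authors' deposited table for delta conserved, and 0 list genes passed as higher in the other 2 tables. By limma, genes were also higher with SLNCR1: 3 of 13 MMP inhibitors and activators, 3 of 11 genes of the plasminogen system, 5 of 14 cathepsins and cystatins and 2 of 18 matrix substrates, where 3.95% of all genes tested were. Both groups had the shallower libraries, and with the library total as a covariate 0 of 16067 genes passed as higher with delta conserved by limma and 13 as lower (857 at an unadjusted p under 0.05).

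The genes whose levels were most like MMP9 and the 4 members that passed in the authors' deposited tables were sought over the 8 libraries, among genes with a mean normalized count of at least 50. For MMP19 these were ZNF773 (Pearson r = 0.998), THUMPD2 (0.997) and CCT6P1 (0.997), each lower in the 4 libraries with SLNCR1 and delta conserved. THUMPD2, for example, had group means of 568 in vector, 270 with SLNCR1, 628 in the conserved group and 254 in the delta conserved group. For TIMP3 they were ATP5A1, ARPC2 and S100A10 (0.996 to 0.997), for MMP2 CAPNS1, JAM3 and CTSZ (0.996 to 0.997), for MMP14 PLAT, MARCKSL1 and KDELR1 (each 0.99), and for MMP9 HEXA, RFC5 and SLC25A33 (0.905 to 0.928). The points are libraries that share their depth and group, so these values are descriptive.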

How the data were processed

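Poly(A) RNA of 8 libraries was read with an unstranded kit, per the labels' protocols. STAR, featureCounts and DESeq with the hg19 build are named in the submitters' processing notes; their versions, options and gene models: not given in the sources used here. Signal as deposited is the authors' mean of normalized reads per group, per the file headers. The deposited fold is the ratio of construct to vector mean, converted here to log2. The p-values, raw and adjusted, were deposited by the authors with each table.

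Because a group mean adds the scaled whole reads of 2 libraries, each library's reads could be solved. The answer was unique for 99.981% of genes in the conserved group and 100% elsewhere. Which library is which replicate is not known. Reads were scaled by median-of-ratios size factors and tested with limma 3.58.1 in R 4.3.3 (4 groups, variance trend, Benjamini-Hochberg) on log2(normalized count + 1) of 16067 genes (mean 10 or more), with 4 residual degrees of freedom. On simulated data the limma step found 70.1% of 1.5-fold, 85.1% of 2-fold and 100% of 4-fold changes for SLNCR1 against vector (16074 genes, 7 of 174 calls false), 61.2%, 76.6% and 100% for the conserved group (16056 genes, 4 of 158 false) and 59.7%, 84.8% and 96.9% for delta conserved (16067 genes, 9 of 168 false). The simulated counts had the same assumed dispersion for all genes and no drift of levels with depth, and no change was under 1.5-fold. Recovery of differences as small as those of MMP2, MMP14, TIMP1 and TIMP3 was thus not tested. Python 3.11.15, pandas 2.3.3 and matplotlib 3.10.9 were used otherwise.

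Members and lists were chosen with earlier results of these data known. Named genes were the 9 members, up to 4 passing genes per list and table by lowest p, the overlapping SYN1 and SYN3, LINC00511, and the 3 genes most like MMP9 and each member that passed in a deposited table. TMEM198B and WTAPP1 were added as overlapping genes after their values were seen. SLC12A5-AS1 and CEP295NL were looked up as well and had no row. Alternatives were other pseudocounts, filters, scalings, variance models, the 2 groups alone, each library left out, the library total as a covariate (chosen after seeing the data) and an authors' adjusted p under 0.1.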

Additional observations from a re-analysis of the deposited data

Results flagged for a closer look

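Differences between constructs passed limma's test for 7 results. Against the conserved region, SLNCR1 was lower for MMP19 by a log2 difference of -1.78 and higher for MMP14 by 0.238 and for TIMP1 by 0.264. Against delta conserved, the conserved region was higher for MMP19 by 1.86 and lower for MMP14 by -0.261, for MMP2 by -0.258 and for TIMP1 by -0.279. The 5 differences in MMP14, MMP2 and TIMP1 did not pass with the library total as a covariate, and both differences in MMP19 did. Neither SLNCR1 nor delta conserved libraries share a range of depth with conserved libraries, so that fit extrapolates.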

How the results depend on the processing

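No reversal of a passing difference occurred over 54 member differences and their alternatives (701 values, of which 611 stayed on their side of the threshold, 80 lost and 10 gained a call). MMP19 passed in every alternative run for SLNCR1 against vector, SLNCR1 against the conserved region and the conserved region against delta conserved, and for delta conserved against vector in every alternative except the library total as covariate. The number of members that passed by limma was 5 for SLNCR1 against vector, 5 for delta conserved against vector, 3 for SLNCR1 against the conserved region and 4 for the conserved region against delta conserved. With no filter beyond a read in any library these became 2, 3, 1 and 1. With no variance trend they became 1, 1, 1 and 1. With the library total as a covariate they became 1, 0, 1 and 1. With only the 2 groups compared they became 1 for SLNCR1 against vector, 1 for SLNCR1 against the conserved region and 7 for the conserved region against delta conserved. With library totals as scaling, SLNCR1 against the conserved region gave 5. The conserved region against delta conserved gave 5 with a filter at a mean of at least 1, with TMM scaling and with library totals. Leaving out 1 library gave 1 to 5, 1 to 5, 1 to 5 and 1 to 1, and 0 to 0 for the conserved region against vector and for SLNCR1 against delta conserved. Without vector library a the counts against vector were 1 for SLNCR1 and 1 for delta conserved, without SLNCR1 library b 1, without delta conserved library a 2 and without delta conserved library b 1. Against the conserved region SLNCR1 gave 1 without conserved library a, conserved library b or SLNCR1 library b and 5 without SLNCR1 library a. The conserved region against delta conserved gave 1 without any 1 of its libraries. MMP9 passed in 1 alternative, the conserved region against delta conserved with only the 2 groups compared (limma, adjusted p = 0.0394). It met the filter at a mean of at least 10 there only through the conserved group. Its mean was 17.2 in that group and 7.20 in the delta conserved group, so this pass is no independent support. The cause of these changes was not tested. No paired analysis was possible because the tables' columns carry no replicate number, so the planned replicate block was not run. MMP9 had 5 to 23 reads in a library.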
